A study of Mus musculus with 4 samples.

Results

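Polyamines are small positively charged molecules that bind RNA and ribosomes, and the cell keeps their level in range largely by controlling the translation and turnover of a few proteins. The 10 genes described here encode the core of that system in the mouse: Odc1, the antizymes Oaz1 and Oaz2, the antizyme inhibitor Azin1, the synthesis enzymes Amd1, Srm and Sms, and the catabolic enzymes Sat1, Smox and Paox. They were chosen by name, with earlier results of these data known. They are 10 of the 30694 genes listed for translation efficiency (TE, the normalized ribosome footprints of a gene divided by its normalized RNA). TE was blank for 5608 to 8625 of all genes in each library. Of 4669 open reading frames (ORFs) with footprint values, 2 belong to the 10 genes. Those values came from Ribo-seq, the sequencing of RNA fragments protected by ribosomes, in 4 libraries of FGSCs, mouse female germline stem cells that are kept in culture and were derived from ovary. Cells of 2 libraries carried a lentiviral short hairpin RNA against the long noncoding RNA Gm26917 (shGm26917), and cells of the other 2 carried a control hairpin (shNC). Both groups were therefore infected with lentivirus and selected with an antibiotic, and both were treated with cycloheximide before lysis. The comparison addressed which mRNAs were translated differently after Gm26917 was targeted. The study calls the replicates biological, but the labels do not say whether they came from separate cultures, so p-values measure the spread between these libraries only.

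Ornithine decarboxylase (Odc1) makes putrescine from ornithine, spermidine synthase (Srm) and spermine synthase (Sms) lengthen it with groups supplied by S-adenosylmethionine decarboxylase (Amd1), and Sat1, Paox and Smox acetylate and oxidise the products back. Antizymes bind Odc1 protein, send it to the proteasome without ubiquitin and reduce polyamine uptake. Their full-length protein is made only when ribosomes shift frame by 1 base, a shift that polyamines favour, and the antizyme inhibitor Azin1 resembles Odc1, has no decarboxylase activity and binds antizyme in its place. The AMD1 mRNA is known, from work on mammalian cells, for a short ORF in its leader at which ribosomes stall when polyamines are plentiful.

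That leader ORF is shown because it is the only complete short ORF found near the annotated starts of these genes. RefSeq promoter windows (GRCm38.p6, the assembly of mm10) were present for 8 of the 10 genes in 10 windows, and the first 50 bases after each annotated start were searched for ATG on the transcribed strand. An ATG was found in 3 of the 10 windows, of Amd1, Sms and Paox, against 44.3% of all 32851 windows. An ATG followed by an in-frame stop (TAA, TAG or TGA) was found in 1 window, that of Amd1, against 11.7% of all windows. The Amd1 stretch lies at chr10:40302152-40302181 on the minus strand and is printed with its ORF, ATG to stop, in capitals. The Sms stretch lies at chrX:157492258-157492287 on the minus strand and the Paox stretch at chr7:140125714-140125734 on the plus strand, each with its first ATG in capitals.
Amd1: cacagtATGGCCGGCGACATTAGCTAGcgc
Sms: cgaATGgcgggagagcatggccagagcttt
Paox: cctgagctagccATGgcgttc
The Amd1 ORF runs from base 14 to base 34 after the annotated start and has 6 codons and a stop. It was found letter for letter in 2 of the 32851 windows, those of Amd1 and of its near copy Amd2. The Sms and Paox stretches met no in-frame stop within the bases searched, and whether their ATG begins the coding sequence was not looked up. These are matches of letters, not measured initiation sites, and no ORF upstream of a coding sequence was listed for any of the 10 genes.

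Library shGm26917 replicate 1 stood apart before any gene was compared. It listed 372 ORFs above 0 (7.97%), against 3421 to 4250 in the other 3 libraries, and held 157914 reads in listed ORFs against 1049143 to 1753036. Its log2 TE correlated with the other libraries at r = 0.77 to 0.78 across 10115 genes, and the other libraries with each other at r = 0.92 to 0.94 (a description across genes, which are not independent replicates). Reads per gene cannot be read from a ratio, so the depth of each TE is unknown. Of 9 germline markers, 7 were analysed (all but Dazl and Dppa3) and 2 had a TE above 0 in all 4 libraries, with Ddx4, Dnd1 and Pou5f1 above 0 in none. The paper reports Ddx4 and Oct4 (Pou5f1) in its FGSCs by RT-PCR and by immunofluorescence, which are other measures than TE. Ifitm3 was the only germline marker with a listed ORF, at 1111 and 797 in shNC and 0 and 799 in shGm26917. All 5 stromal markers analysed were above 0 in all 4 libraries, with summed ORF values of 677 to 4226, and 4 of 5 macrophage markers were above 0 in all 4. So were 0 of 4 granulosa, 0 of 3 endothelial, 0 of 4 surface epithelium and 1 of 3 theca markers analysed. For the endothelial markers that 0 rested on shGm26917 replicate 1, as 3 of 3 were above 0 in each of the other 3 libraries. Surface epithelium markers above 0 numbered 2 and 2 in shNC and 0 and 1 in shGm26917. Granulosa markers above 0 numbered 0 and 0 in shNC and 1 and 1 in shGm26917. In bulk samples a change in the number of cells of a type and a change in RNA per cell cannot be told apart, and the part of other cell types in the values below was not tested.

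Most of the polyamine genes had a listed TE below the median of coding genes above 0. The levels of Oaz1, Oaz2, Sms and Amd1 among them are uncertain, as described below with their named pseudogenes. None of the 8 genes that could be tested differed between shNC and shGm26917 beyond the spread of the libraries. Of the 10 genes, 8 had a TE above 0 in all 4 libraries and were tested, while Amd1 was listed at 0 in all 4 and Paox in 1. At an adjusted p under 0.05, 0 of the 8 passed limma's test, and 0% of all 10115 genes tested did. The fold of 1.5 and p of 0.05 that the study names as its threshold, taken here on limma's unadjusted p, were met by 0 of 8 genes, against 237 of all genes (2.34%). The change was above 0 in 6 and below 0 in 2 of the 8, with a median of 0.38 on the log2 scale, against 5062 of the 10115 genes above 0 and a median of 0.00095. The values of shGm26917 and shNC did not overlap in 1 of the 8, Srm, which was higher after knockdown, as were 16.1% of all genes.

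**Figure D1:**
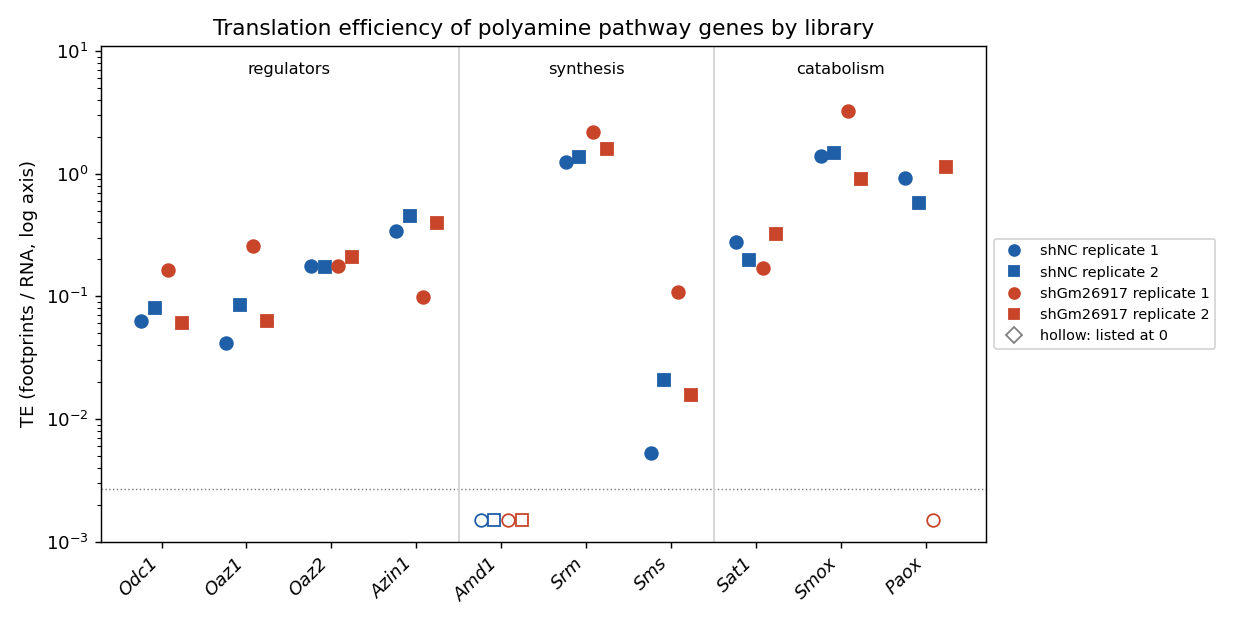
TE of the 10 polyamine genes (log axis) in the 4 libraries, 1 point per library, grouped as regulators, synthesis and catabolism, with hollow points below the dotted line for a TE listed at 0. By the shNC points Sms, Oaz1 and Odc1 lay lowest among the genes above 0 and Srm and Smox highest, and the shGm26917 replicate 1 point was the highest for Odc1, Oaz1, Srm, Sms and Smox.

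Odc1 (chromosome 12, 17544794 to 17551505, mm10) had TE values of 0.0630 and 0.0806 in replicates 1 and 2 of shNC, and of 0.165 and 0.0606 in replicates 1 and 2 of shGm26917. The 2 shGm26917 values lay on either side of both shNC values, so the groups overlapped. These levels stood at percentiles 1.63, 2.13, 5.65 and 1.64 among the protein-coding genes above 0 in each library. Fewer than 6% of those genes had a lower ratio of footprints to RNA, and coding genes listed at 0 were left out of this ranking. The log2 change was 0.49 ± 0.58 (SE, 2 against 2 libraries; adjusted p = 0.966 in limma), with a 95% interval of -1.04 to 2.02. Without shGm26917 replicate 1 it turned to -0.23, and without shGm26917 replicate 2 it was 1.21.

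Oaz1 (chromosome 10, 80826656 to 80829290), the most widely expressed antizyme, had TE values of 0.0420 and 0.0845 in shNC, and of 0.257 and 0.0634 in shGm26917. Replicate 1 of shGm26917 was the highest of the 4, and replicate 2 lay between the shNC values. Oaz1 stood at percentiles 1.03, 2.19, 10.6 and 1.73. The log2 change was 1.10 ± 0.81 (SE, 2 against 2 libraries; adjusted p = 0.966 in limma), with an interval of -1.04 to 3.23, and it was 0.091 without shGm26917 replicate 1. The 2 shNC libraries themselves differed 2.01-fold in Oaz1, against 1.28-fold in Odc1.

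Oaz2 (chromosome 9, 65668001 to 65690300), a second antizyme, was the steadiest of the regulators. Its TE was 0.176 and 0.173 in shNC and 0.175 and 0.209 in shGm26917, at percentiles 5.15 to 7.56. It was the only one of the 8 tested genes in which shGm26917 replicate 1 was neither highest nor lowest. The log2 change was 0.13 ± 0.32 (SE, 2 against 2 libraries; adjusted p = 0.976 in limma), with an interval of -0.71 to 0.97, which on the fold scale runs from 0.613 to 1.95.

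Azin1 (chromosome 15, 38487427 to 38519266, minus strand) had the highest TE of the regulators in 3 libraries and the lowest in the fourth. Its TE was 0.344 and 0.455 in shNC, 0.0993 in shGm26917 replicate 1 and 0.393 in shGm26917 replicate 2. Replicate 2 lay between the shNC values, and replicate 1 was 0.252 of replicate 2. The log2 change was -1.001 ± 0.74 (SE, 2 against 2 libraries; adjusted p = 0.966 in limma), with an interval of -2.95 to 0.95, and it was -0.0085 without shGm26917 replicate 1.

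The regulators were also compared with each other within each library. Azin1 TE was 5.46 and 5.65 times that of Odc1 in shNC, 6.49 times in shGm26917 replicate 2 and 0.603 times in shGm26917 replicate 1. Oaz1 TE was 0.666, 1.05 and 1.05 times that of Odc1 in the same 3 libraries and 1.56 times in shGm26917 replicate 1. Azin1 was thus above Odc1 in 3 libraries, from both groups, and below it in 1.

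Amd1 (chromosome 10, 40287458 to 40302188, minus strand), the gene with the leader ORF printed above, was listed at a TE of 0 in every library, as was Amd2. With no value above 0 and unknown depth, its translation could not be compared between groups, and a listed 0 does not show that no ribosomes were on the mRNA. Amd1 and Amd2 are near copies, and how reads that match both were counted is not stated in the sources used.

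Srm (chromosome 4, 148591503 to 148594993) had a TE above that of most coding genes. Its TE was 1.24 and 1.38 in shNC and 2.20 and 1.58 in shGm26917, at percentiles 61.3, 65.3, 78.9 and 72.1. Both shGm26917 values were above both shNC values, and the means were 1.31 ± 0.0981 and 1.89 ± 0.440 (SD, n = 2 each). The fold change was 1.43 with a 95% interval of 0.758 to 2.70 (log2 0.52 ± 0.35, SE; limma adjusted p = 0.966), so the difference did not pass the test. Leaving out a library gave log2 changes from 0.28 to 0.76, all above 0, and the lowest of these was without shGm26917 replicate 1.

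Sms (chromosome X, 157443855 to 157492287, minus strand) had the lowest TE of the tested members in shNC. Its TE was 0.00531 and 0.0209 in shNC and 0.109 and 0.0157 in shGm26917, at percentiles 0.0976, 0.503, 3.24 and 0.505. The shNC libraries differed 3.93-fold and the shGm26917 libraries 6.97-fold, and replicate 2 of shGm26917 lay between the shNC values. The log2 change, the largest of the 8, was 1.97 ± 1.18 (SE, 2 against 2 libraries; adjusted p = 0.966 in limma) with an interval of -1.14 to 5.08, and it was 0.57 without shGm26917 replicate 1. Srm and Sms catalyse successive steps, yet the listed TE of Srm was 233, 65.9, 20.2 and 101 times that of Sms in the 4 libraries in the order given. The level of Sms, which has a named pseudogene, is uncertain, as described below.

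**Figure D2:**
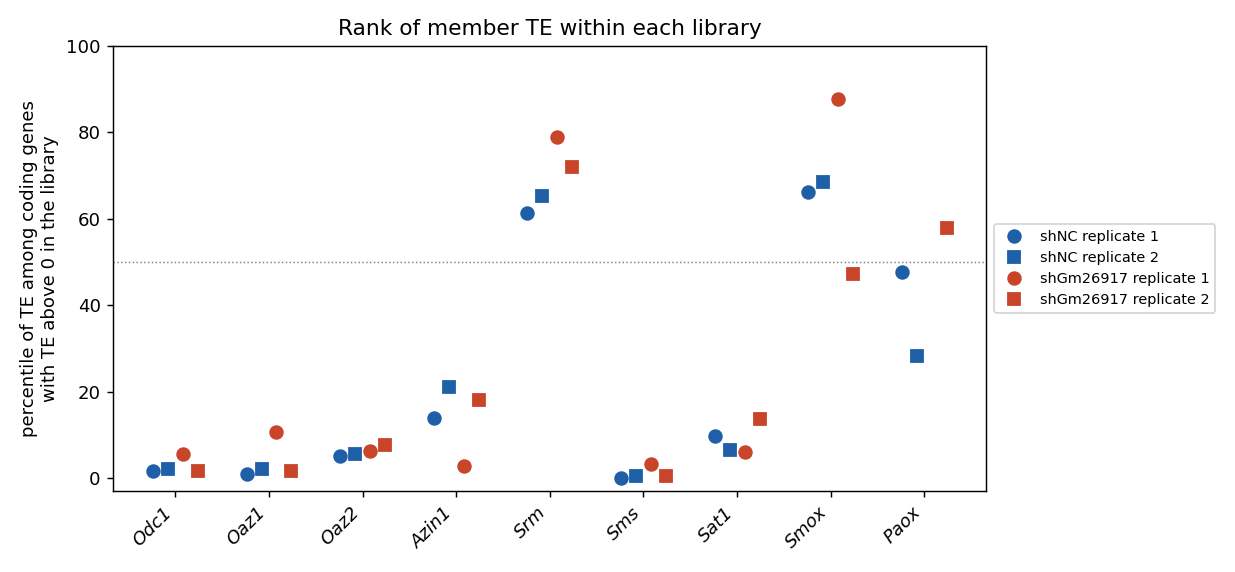
Percentile of the TE of each polyamine gene among protein-coding genes whose TE exceeded 0 in that library, 1 point per library, with the dotted line at 50. Odc1, Oaz1, Oaz2 and Sms stayed at or below 10.6 in all 4 libraries, while Srm stayed between 61.3 and 78.9.

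The catabolic genes gave no shared direction. Sat1 (chromosome X, 155213132 to 155216449, minus strand), the acetyltransferase that is rate-limiting for polyamine breakdown, had TE values of 0.276 and 0.199 in shNC, against 0.169 and 0.319 in shGm26917. The shGm26917 values lay below and above both shNC values, and the log2 change was -0.01 ± 0.46 (SE, 2 against 2 libraries; adjusted p = 0.997 in limma), with an interval of -1.23 to 1.20. Smox (chromosome 2, 131491496 to 131525922), which oxidises spermine directly, had TE values of 1.38 and 1.47 in shNC, against 3.24 and 0.909 in shGm26917. Its shGm26917 values too lay above and below both shNC values, with a log2 change of 0.27 ± 0.68 (SE, 2 against 2 libraries; adjusted p = 0.977 in limma) that turned to -0.65 without shGm26917 replicate 1. Paox (chromosome 7, 140115799 to 140137224), the oxidase of acetylated polyamines, reached TE values of 0.920 and 0.572 in shNC, was listed at 0 in shGm26917 replicate 1 and had 1.14 in shGm26917 replicate 2. It was among 1662 of 11334 coding genes (14.7%) that were above 0 in the other 3 libraries and at 0 in that one. Over those 3 libraries its log2 change was 0.66 ± 0.44 (SE; limma adjusted p = 0.933), with shGm26917 represented by 1 library that was assumed to vary like shNC.

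By mean TE in shNC the order from the top was Smox, Srm, Paox, Azin1, Sat1, Oaz2, Odc1, Oaz1 and Sms. The ranges over all 4 libraries did not overlap between Srm and Paox or between Oaz2 and Odc1, and these steps held in 4 of 4 libraries. For Paox this counts the 0 listed in shGm26917 replicate 1, so both genes of that step were above 0 in 3 libraries only. All other neighbours in this order had overlapping ranges over the 4 libraries, although Oaz1 was also above Sms in 4 of 4. Odc1 and Oaz1 overlapped already within shNC, and Odc1 was the higher in 1 of 4 libraries. Of the 8 tested genes, 6, 6, 6 and 7 lay below the median of coding genes in the 4 libraries, and their median TE was 0.226, 0.186, 0.172 and 0.264 against 0.974, 0.970, 1.00 and 0.963 for coding genes above 0.

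Low TE went with the presence of named pseudogenes in these ratios, and Oaz1, Oaz2, Sms and the Amd genes have such pseudogenes. The 188 tested coding genes that have a pseudogene named after them had a median TE of 0.279 to 0.291 in the 4 libraries, against 0.989 to 1.00 for the 9484 others. A TE under 0.1 was found in 25.5% to 31.4% of the former and in 1.22% to 2.53% of the latter. Pseudogenes were found by a name ending in -ps. Those under other names, including any of Odc1, were not looked up, so the 9484 others may hold genes that have them. Oaz1-ps was at 0.00611 and 0.0726 in shNC against 0 and 0.0525 in shGm26917, Sms-ps was at 0.0567 and 0.0943 in shNC against 0 and 0.0272 in shGm26917, and Oaz2-ps was listed at 0 in all 4. The levels of Oaz1, Oaz2, Sms and Amd1 are therefore uncertain, and the part of shared reads in them was not tested.

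**Figure D3:**
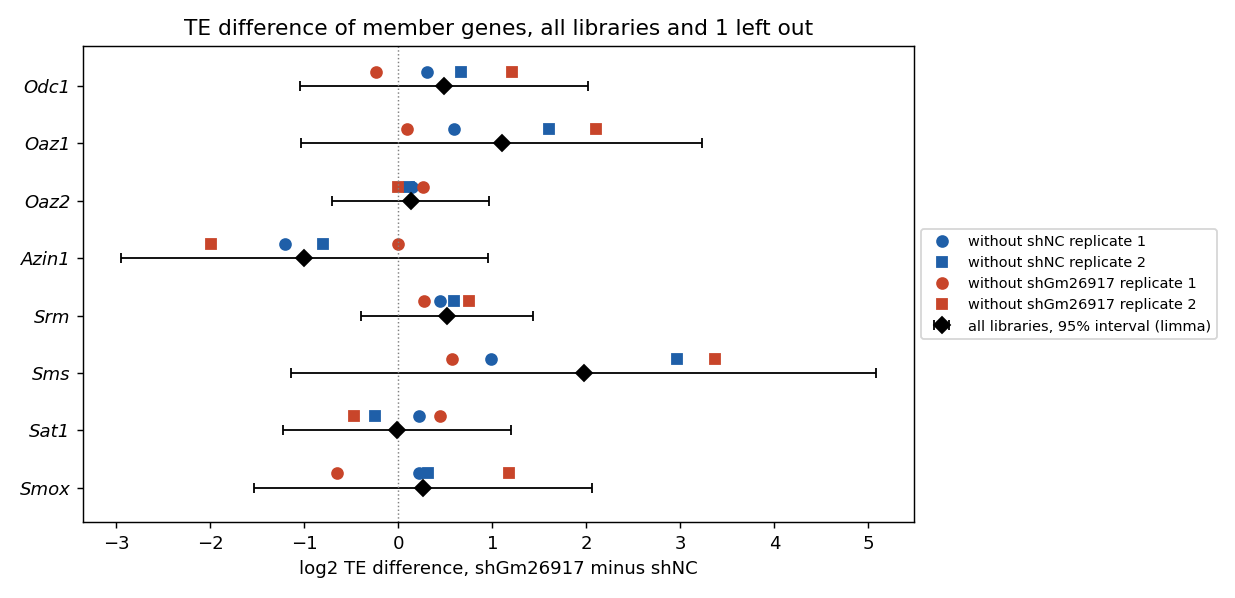
Log2 TE difference, shGm26917 minus shNC, of the 8 tested polyamine genes: black diamonds with bars give the estimate and 95% interval of limma over all 4 libraries, and coloured points the estimate with 1 library left out. All 8 intervals cross 0, and the points without shGm26917 replicate 1 lie between -0.65 and 0.57.

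The distance between the groups was smaller without shGm26917 replicate 1, with a median size of the log2 change of 0.27 against 0.50 with it (0.25 against 0.33 over all genes). That library held the highest value of the 4 in 5 of the 8 genes and the lowest in 2, so it was an extreme in 87.5% of them, against 77.9% of all genes tested. The median ratio of the highest to the lowest library was 3.14 in the polyamine genes against 1.89 in all genes, and 1.47 against 1.37 in the other 3 libraries. Without shGm26917 replicate 1 the 8 log2 changes lay between -0.65 and 0.57, and limma's adjusted p between 0.886 and 0.994. Without shGm26917 replicate 2, when shGm26917 was represented by replicate 1 alone and that lone library was assumed to vary like the others, they lay between -1.99 and 3.37. There 6 of 8 reached the study's threshold, as did 33.4% of all 10115 genes. The smallest limma adjusted p of the 8 was 0.0602, and 255 of all genes were called at an adjusted p under 0.05.

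Odc1, Oaz1 and Sms, the 3 members with a TE under 0.1 in shNC replicate 1, were all higher in shGm26917 replicate 1 than in replicate 2. Of the 172 coding genes with a TE that low and above 0 in all 4 libraries, 72.1% were higher in replicate 1, against 50.5% of the 4738 genes at 0.1 to 1 and 46.3% of the 4762 at 1 or more. That filter removed the genes listed at 0 in replicate 1, which made up 38.8% of the 281 low genes above 0 in the other 3 libraries. With those genes kept the shares were 44.1%, 42.5% and 40.6%, so the excess among low genes rested on the filter. The 3 polyamine genes were 2.72-, 4.05- and 6.97-fold higher in replicate 1 than in replicate 2. The coding genes most like Odc1 over the 4 libraries, by the root mean square difference in log2 TE among 9671 genes, were Ak3 (0.14), Zfp329 (0.25) and Armcx3 (0.26). Those most like Oaz1 were Tmem170b (0.32), Cyb5r4 (0.42) and Odc1 itself (0.44).

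Footprints on single ORFs were listed for Srm and Azin1 alone, both as annotated coding sequences. This was 2 of 10 genes (20.0%), against 25.6% of all 16948 coding genes, and 2 of the 8 above 0 in all libraries (25.0%), against 43.5% of 9672. ORF values are footprint reads divided by a size factor of the library. The Srm ORF (chromosome 4, 148591620 to 148594307, 302 codons) had 824 and 896 in shNC and 1045 and 1013 in shGm26917, from 1044, 769, 465 and 1340 reads. Both shGm26917 values were above both shNC values, as in 1.73% of all ORFs and in 21.8% of the 372 ORFs above 0 in shGm26917 replicate 1, and all 4 lay within a narrow range. The log2 change was 0.26 ± 0.51 (SE, 2 against 2 libraries; adjusted p = 1.00 in limma), with an interval of -1.20 to 1.72.

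The Srm ORF took 0.0645% (exact 95% interval 0.0607 to 0.0685), 0.0733% (0.0682 to 0.0787), 0.294% (0.268 to 0.322) and 0.0764% (0.0724 to 0.0806) of the reads in listed ORFs of the 4 libraries, intervals that cover counting error only. The share in shGm26917 replicate 1 was the highest by far, in a library where 92.0% of all ORFs were listed at 0. With the libraries scaled to equal totals the log2 change of Srm was 1.12 (limma adjusted p = 0.815). The Azin1 ORF (chromosome 15, 38490361 to 38501505, 448 codons) had 8.69 and 110 in shNC, was listed at 0 in shGm26917 replicate 1 and had 8.31 in replicate 2, from 11, 94, 0 and 11 reads. The groups did not overlap, lower as in 27.3% of all ORFs, and shNC replicate 1 and shGm26917 replicate 2 differed by less than 1 unit. No fold change is given against a listed 0, and limma's adjusted p was 0.836. At an adjusted p under 0.05 limma called 0% of the 4669 ORFs, and neither Srm nor Azin1 met the study's threshold, which 7.37% of all ORFs met.

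**Figure D4:**
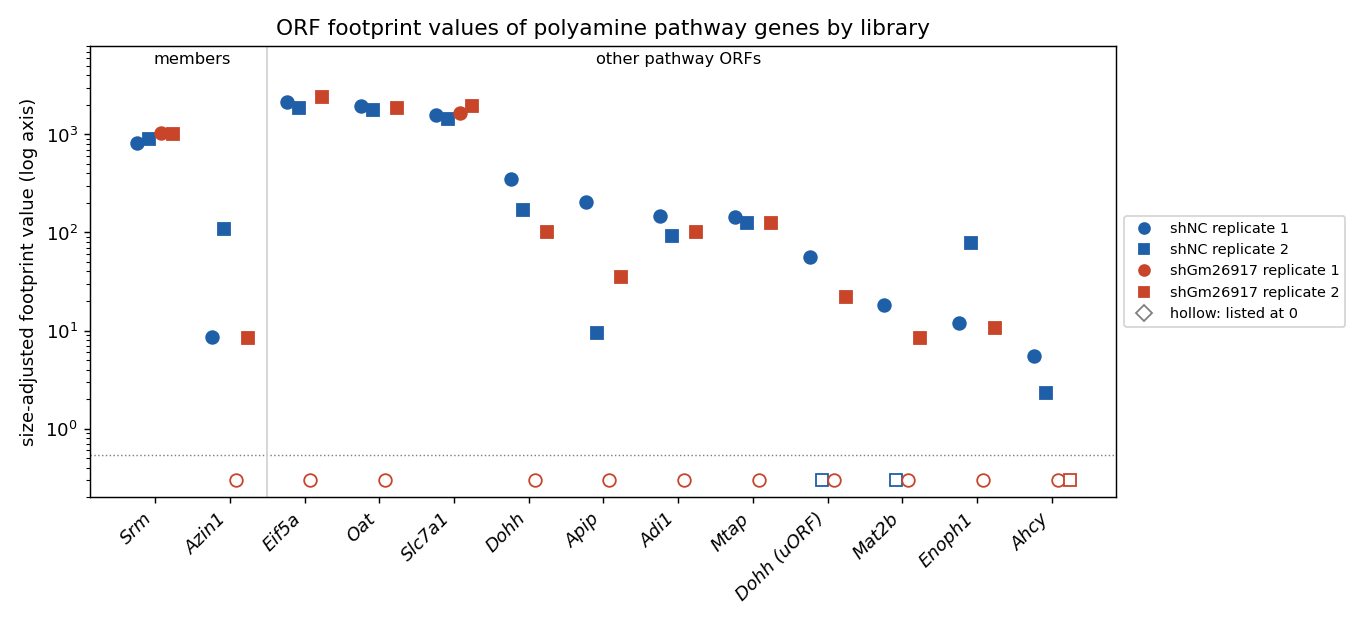
Size-adjusted footprint value (log axis) of the 13 listed ORFs of polyamine genes, 1 point per library, with hollow points below the dotted line for a value listed at 0. Srm and Slc7a1 are the only ORFs of the 13 above 0 in all 4 libraries, and 11 are listed at 0 in shGm26917 replicate 1, as are 92.0% of all ORFs.

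Other genes of the pathway, a list covering ornithine and arginine supply, methionine salvage, transport and hypusine formation, gave the same absence of calls. Of 26 genes fixed, 25 were analysed and 15 had a TE above 0 in all 4 libraries. At an adjusted p under 0.05 limma called 0 of 15, against 0% of all 10115 genes. The study's threshold was reached by 0 of 15, against 2.34% of all genes. The change was above 0 in 10 and below 0 in 5, with a median log2 change of 0.11. Over all 10115 genes it was above 0 in 5062, with a median of 0.00095. The groups did not overlap in 3 genes that were higher (Mtap, Eif5a and Mat2b) and 4 that were lower (Enoph1, Adi1, Atp13a3 and Oat), against 16.1% and 14.8% of all genes.

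The methionine salvage genes, which recover methionine from the by-product of spermidine and spermine synthesis, did not share a direction. TE of Mtap, the first enzyme, was 0.917 and 0.770 in shNC against 1.10 and 1.08 after knockdown, a log2 difference of 0.38 ± 0.32 (SE). Enoph1, a later enzyme, was at 2.06 and 2.32 in shNC against 1.28 and 1.85 after knockdown, a log2 difference of -0.50 ± 0.36 (SE). Adi1, which acts after Enoph1, was at 1.26 and 1.21 in shNC against 0.530 and 1.21, and its log2 change of -0.63 ± 0.50 (SE) was -0.03 without shGm26917 replicate 1. None passed the test (limma adjusted p = 0.966 for each, n = 2 per group).

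Eif5a, the translation factor that carries hypusine, a residue made from spermidine, showed TE values of 0.885 and 0.852 in shNC, against 1.03 and 1.24 in shGm26917. Its log2 change was 0.38 ± 0.32 (SE, 2 against 2 libraries; adjusted p = 0.966 in limma), and 0.51 without shGm26917 replicate 1. Oat, which links ornithine to glutamate and proline, was at 2.28 and 2.16 in shNC against 1.32 and 2.07 after knockdown, a log2 difference of -0.43 ± 0.37 (SE; limma adjusted p = 0.966) that was -0.10 without shGm26917 replicate 1. Atp13a3, a polyamine transporter, was at 0.393 in each shNC library against 0.370 and 0.211 after knockdown, a log2 difference of -0.49 ± 0.40 (SE; limma adjusted p = 0.966) that was -0.90 without shGm26917 replicate 1. In Atp13a3 the lowest library was shGm26917 replicate 2, which alone stood for knockdown in that last value.

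The remaining 10 of the 25 genes had a 0 or a blank in at least 1 library. Arg2, the mitochondrial arginase that makes ornithine, was at 0.631 and 2.10 in shNC, and both shGm26917 libraries listed it at 0. Of 16948 coding genes, 5469 were listed at 0 in shGm26917 replicate 1 and 3117 in replicate 2. How many shared the pattern of Arg2 was not counted, and a listed 0 at unknown depth does not show a loss of translation. Azin2, Sat2 and Eif5a2, the second antizyme inhibitor, a relative of Sat1 and the second Eif5a gene, were at 0 in shGm26917 replicate 1 alone. Oaz3, the antizyme of the testis, was at 0 in 3 libraries and at 0.493 in shGm26917 replicate 2. Arg1 and Slc18b1 were each at 0 in 1 library of each group, Ahcy was at 0 in shGm26917 replicate 2, Amd2 was at 0 in all 4, and Mat2a was at 0 in shNC replicate 2 and blank in the other 3. Agmat was not analysed here.

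ORF values followed the same split between libraries. The 25 genes had 11 listed ORFs in 10 genes (40%, against 25.6% of all coding genes). Of these ORFs, 10 were listed at 0 in shGm26917 replicate 1, as were 92.0% of all ORFs. Slc7a1, the arginine and lysine importer, was the exception, with 1572 and 1430 in shNC against 1645 and 1935 after knockdown and a log2 difference of 0.25 ± 0.31 (SE, 2 against 2 libraries; adjusted p = 0.854 in limma). Eif5a had 2147 and 1841 in shNC, 0 in shGm26917 replicate 1 and 2419 in replicate 2, and Oat had 1974 and 1794 in shNC, 0 in replicate 1 and 1859 in replicate 2. All 11 polyamine ORFs listed at 0 in that library, that of Azin1 included, belonged to genes with a TE above 0 in it. Whether both tables were made from the same reads and size factors is not stated in the sources used, so an ORF listed at 0 says little about the TE of that library. Some genes differed between the 2 measures within shNC as well. The Azin1 ORF had 8.69 and 110 there with TE values of 0.344 and 0.455. The Apip ORF had 205 and 9.32 with TE values of 3.76 and 2.94. In Srm and Oat the shNC libraries were close in both measures. The cause was not tested. The only upstream ORF among the 11 ORFs of these 25 genes was that of Dohh, the hydroxylase of the hypusine residue. It spans 38 codons (chromosome 10, 81384451 to 81384567) and had 56.1 and 0 in shNC and 0 and 21.9 in shGm26917, beside 355 and 168 and 0 and 101 for the annotated Dohh coding sequence.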

How the data were processed

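Footprints came from RNase I digests of cells held in cycloheximide, per the labels. The deposited gene table holds TE as a ratio, made by the authors from normalized Ribo-seq over normalized RNA-seq values. The deposited ORF table holds a signal, reads divided by a size factor by the authors, for ORFs called with RiboCode. Build mm10 comes from the submitters' processing notes, and neither the aligner nor the counter nor the handling of multiply mapped reads is stated in those sources. Both tables also hold the fold changes, p-values and classes of the authors' own comparison, which were not used. Whole reads were recovered from the ORF values (100% within 0.01 reads, with too few low values in shGm26917 replicate 1 for a separate check), and 1 read was worth 0.790, 1.17, 2.25 and 0.756.

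TE was tested with limma 3.58.1 (R 4.3.3; eBayes without trend) on log2(TE), with no pseudocount, for 10115 genes above 0 in all 4 libraries. ORFs were tested on log2(value + 1), with trend, for all 4669 ORFs (each over 1 in at least 2 libraries). That scale understates changes of low values. Adjusted p-values are Benjamini-Hochberg over all features and two-sided. On whole reads edgeR 4.0.16 called 0 of 3927 ORFs and DESeq2 1.42.0 called 0 of the 2587 ORFs to which it gave an adjusted p, and 346 ORFs and 237 genes (2.34%) had an unadjusted p under 0.05 in limma. The scripts were tested on simulated data in which the log2 TE of all 4 libraries had the same spread. In the real data shGm26917 replicate 1 stood apart, a setting which that test did not cover. All members, up to 6 pathway genes with the smallest p, those at 0, and the 3 genes nearest to Odc1 and to Oaz1 were named. Mat2b, Slc7a1, Dohh, Gamt and Slc3a2 were named after their values were seen. Members and lists were chosen with earlier results of these data known.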

Additional observations from a re-analysis of the deposited data

How the results depend on the processing

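No TE of a member or pathway gene and no member ORF was called at an adjusted p under 0.05 under any alternative run. Without shGm26917 replicate 2, which leaves replicate 1 alone, 5 pathway ORFs listed at 0 in it (of Eif5a, Oat, Mtap, Dohh and Adi1) were called, with 1982 of all 4669 ORFs. Of 189 values of the tested members and 6 pathway genes (Enoph1, Adi1, Atp13a3, Mtap, Eif5a and Oat) under alternatives, 181 kept their direction and their side of the threshold and 8 changed sign. Runs that altered only the features tested, the trend or the replicate block could not alter a log2 change. The counts therefore do not measure how robust the directions were. Without shGm26917 replicate 1, both over genes above 0 in all 4 libraries and with genes at 0 in it added (a set chosen after seeing the data), TE changes turned to -0.23 for Odc1, -0.65 for Smox and 0.45 for Sat1. Without shGm26917 replicate 2 they were 1.21, 1.18 and -0.47. Sat1 also turned to 0.24 after quantile normalisation and to 0.22 without shNC replicate 1. Of the listed pathway features, 4 of 15 TE changes (Gamt, Slc7a1, Dohh and Slc3a2) and 3 of 11 ORF changes (Eif5a, Mat2b and the Dohh upstream ORF) changed sign with 1 library left out. Members at the study's threshold numbered 0 to 6 with 1 library left out, and pathway genes 0 to 3, beside 0.761% to 33.4% of all genes (33.4% where 6 and 3 were reached, without shGm26917 replicate 2). With a pseudocount of 0.01, 1 of 24 pathway genes reached it, beside 2.72% of all 19721 genes tested so. The cause was not tested. Deviations of libraries with the same replicate number were not positively correlated (-0.043 for TE and -0.15 for ORFs). As shGm26917 replicate 1 stood apart, this could not show whether the numbers paired the libraries. With the replicate block 0 members were called in either table, with a smallest limma adjusted p of 0.999 for TE. Crossing the numbers for ORFs gave 0 calls. Odc1 and Sms fell below the filter of a mean TE of 0.1, and Azin1 had a 0 and was not tested among ORFs above 0 everywhere. Over all genes, the pseudocount of 0.01 gave 39 calls of 19721. TE depth is unknown.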
